A study of Bos taurus with 12 samples.

Results

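IL1B, CXCL8, TNF, TLR2, TLR4 and CD14, genes of the early response to bacteria, were followed in RNA from the fat layer of milk: the first 3 encode secreted signals and the other 3 encode sensors. They were taken from the deposited count table by their cattle Ensembl gene IDs, which makes 6 of its 24616 rows; the rule names IDs and sets no limit on any measured value. All 6 were among the 11323 genes abundant enough to be tested. The gene names rest on the ID list, because no ID of the table could be paired with a symbol from the other sources used here.

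The milk came from 6 Holstein cows in early lactation. Every cow gave 1 control library and 1 library with lysine, an essential amino acid, supplied postruminally, so each animal served as its own control and there were 6 libraries per group. The treatment label of the lysine libraries reads 63 days, and the library codes carry L0 or L63; whether 63 stands for a time or a dose is not clear from them. They also carry a B code (1 or 2, 3 cows each, fixed within a cow) and a P code (1 to 4) that differed between the libraries of a cow; the labels explain neither. Against its control, the lysine library had a P code 1 lower in 4 cows and 3 higher in cows 4394 and 4408. Library totals ran from 5.45 to 56.6 M counts (M, the metric prefix mega; median 20.8 M), with the lysine library the deeper one in 5 of 6 cows, and the 10 most abundant genes took 60.4% to 86.8% of them. The control library of cow 4394 had the fewest genes detected, 10687 against 12198 to 15319 in the other libraries, so its values are given apart where a result rests on them.

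In the udder, bacteria that enter through the teat are met by receptors on resident cells. TLR4, helped by CD14, recognises lipopolysaccharide of Gram-negative bacteria, and TLR2 recognises lipoproteins and other wall components of Gram-positive bacteria. Both receptors signal through NF-kappaB, which switches on cytokine genes. IL1B and TNF are cytokines that activate surrounding cells and blood vessels, and CXCL8 (interleukin 8) is a chemokine that draws neutrophils into the milk. Mammary epithelial cells and milk leukocytes can both make these transcripts. In RNA of a mixed sample, fewer cells of a type and less RNA per cell cannot be told apart, and cell type markers were not read here because they had no names in the table.

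Levels are given as normalised CPM, counts brought to a common library total after scaling by the trimmed mean of M-values (TMM), so that 3 counts correspond to 0.0562 to 0.474 normalised CPM depending on the library. Levels of different genes are not compared, since no transcript lengths were used. No molecular identifiers are recorded for the reads, which are then not independent molecules, so limits from counts cover counting error only.

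IL1B (ENSBTAG00000001321) spanned the range from no count to a clear signal. Among control libraries it measured 0 in cow 4394, 0.568 in cow 4408, 1.78 in cow 4381, 2.93 in cow 4345, 12 in cow 4383 and 13.5 in cow 4319. Among lysine libraries it measured 1.48 in cow 4381, 1.57 in cow 4383, 6.19 in cow 4408, 6.52 in cow 4394, 16.3 in cow 4345 and 29.5 in cow 4319. Cow 4319 was thus the highest in both groups, and the groups overlapped over most of their range. The 0 in the control of cow 4394 was set at a bound of 3 counts, 0.16 normalised CPM. Its upper 95% counting limit was 0.196. That 0 stood beside 137 counts in the lysine library of the same cow. Those gave 6.52 normalised CPM (95% counting limits 5.48 to 7.71), 40.9-fold above the 3-count bound. The control library concerned had the fewest genes detected.

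CXCL8 (ENSBTAG00000019716) was read at 151 counts or more in every library. The control libraries ran from 9.55 in cow 4408 through a median of 20.9 to 90.0 in cow 4319. The lysine libraries ran from 11.8 in cow 4383 through a median of 34.4 to 70.2 in cow 4319, with cow 4345 at 69.2 and cow 4408 at 47.6. In the control group cow 4319 stood far above the other cows, which were all at 27.0 or below, while in the lysine group 3 cows were above that level. The groups overlapped.

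TNF (ENSBTAG00000025471) was the most thinly counted, with under 30 counts in 10 of 12 libraries. Control libraries ran from 0 in cow 4383 through a median of 0.624 to 7.95 in cow 4319. Lysine libraries ran from 0.212 in cow 4381 through a median of 1.14 to 5.41 in cow 4345. Only the control library of cow 4319 (216 counts) and the lysine library of cow 4345 (289 counts) gave the gene more than 29 counts. The 0 in the control of cow 4383 was set at a bound of 3 counts, 0.327 normalised CPM. Its upper 95% counting limit was 0.402. The 18 counts in the lysine library of cow 4383, 1.41 normalised CPM (95% counting limits 0.835 to 2.23), stood 4.31-fold above the 3-count bound.

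TLR2 (ENSBTAG00000008008) varied less. Its control libraries ran from 27.0 in cow 4408 through a median of 37.4 to 56.1 in cow 4345, and its lysine libraries from 23.5 in cow 4319 through a median of 37.4 to 86.8 in cow 4345. Cow 4319, the highest cow for IL1B and CXCL8, gave the lowest TLR2 level of the study in its lysine library and 55.5 in its control library.

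TLR4 (ENSBTAG00000006240) ran from 18.6 in cow 4408 through a median of 40.1 to 49.1 in cow 4319 among controls. With lysine it ran from 25.0 in cow 4394 through a median of 31.5 to 74.0 in cow 4345. The 3 highest libraries were the lysine library of cow 4345 and both libraries of cow 4319, at 51.7 and 49.1.

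CD14 (ENSBTAG00000015032) kept the order of the cows best. Controls ran from 50.5 in cow 4394 through a median of 107 to 190 in cow 4319. Lysine libraries ran from 41.2 in cow 4394 through a median of 113 to 234 in cow 4345. Cow 4394 was lowest in both groups, and cow 4345 was high in both, at 186 in its control library.

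**Figure D1:**
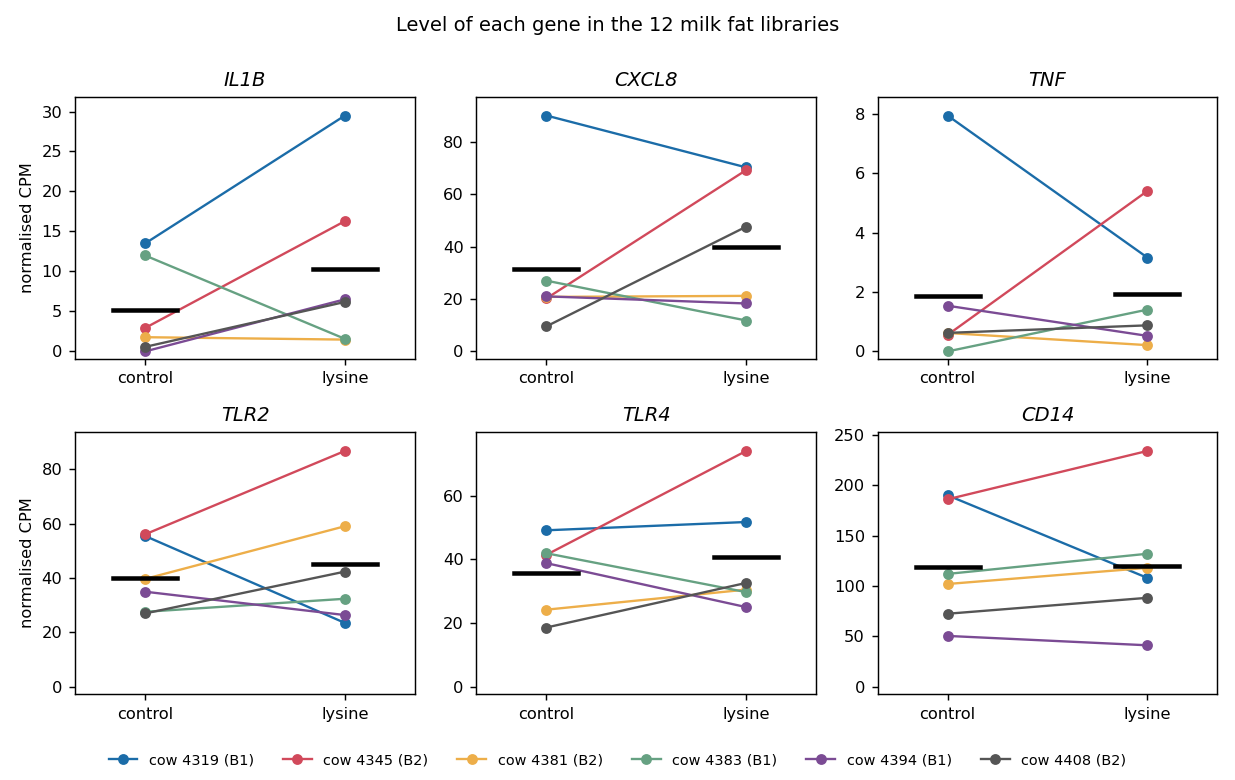
Normalised CPM of each gene (vertical axis, from 0, a separate scale per gene) in the control and lysine library of each cow. Points are single libraries, lines join the 2 libraries of a cow and black bars are the group means; the lines cross in every panel, and the control and lysine points overlap for all 6 genes.

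The cytokines were the more variable of the 6. Over the 12 libraries the coefficient of variation (SD over mean) was 114% for IL1B, 75.4% for CXCL8 and 128% for TNF, against 43.8% for TLR2, 39.7% for TLR4 and 48.6% for CD14. The median over all tested genes was 42.8%. Counting error alone would give about 10% for IL1B, 4.2% for CXCL8 and 17% for TNF, and between 2.2% and 4.0% for the sensors. IL1B and TNF were thus more variable than 96.4% and 98.3% of tested genes, and CXCL8 more than 82.1%, while TLR4, TLR2 and CD14 lay near the middle, above 44.9%, 51.8% and 58.6%. Scarcer genes carry more counting error, which these shares do not correct for.

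The next question was whether the genes rose together in single libraries. In 2 libraries all 6 genes were above their own median over the 12: the control library of cow 4319 and the lysine library of cow 4345. In the control library of cow 4408 all 6 were below it. Of all tested genes, 51.8%, 52.6% and 50% were above their own median in those 3 libraries. The lysine library of cow 4394 and the control library of cow 4381 had 1 of 6 genes above the median, and the other 7 libraries between 2 and 4.

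The same 3 libraries held the highest 3 levels of IL1B, CXCL8, TNF and TLR4, namely both libraries of cow 4319 and the lysine library of cow 4345. This set was picked after its values were seen, and 1.22% of tested genes had the same highest 3. TLR2 and CD14 did not follow: for both the lysine library of cow 4345 was highest and its control library the third highest, with the lysine library of cow 4381 between them for TLR2 and the control library of cow 4319 for CD14. Scaled by library totals alone, 2 genes in place of 4 had this set. The 3 libraries had totals of 31.1, 5.45 and 37.9 M counts, and their 10 most abundant genes took 75.8%, 67.2% and 60.4%, both spread over much of the range of the 12 libraries.

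**Figure D2:**
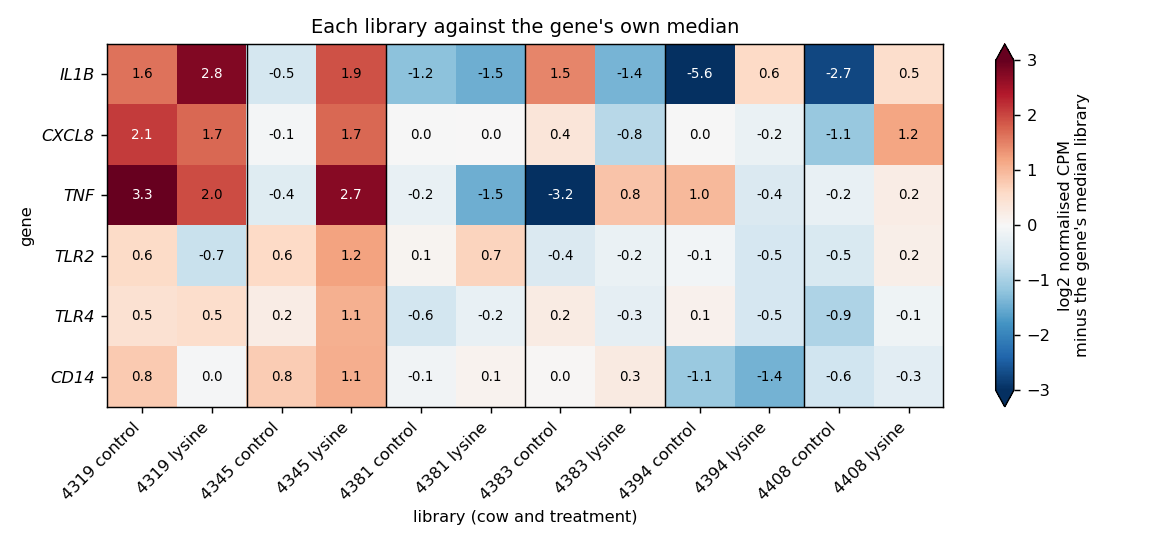
Log2 normalised CPM of each gene (rows) in each library (columns, by cow and treatment) minus the gene's median over the 12 libraries, with a prior count of 2; red is above and blue below the median, and the colour scale ends at 3. The control library of cow 4319 and the lysine library of cow 4345 are red for all 6 genes, and the control library of cow 4408 is blue for all 6; the darkest blue cells are the libraries with 0 counts.

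Across cows, no relation between 2 of the genes passed the threshold with the main scaling. The mean log2 level of the 2 libraries of a cow correlated positively for 15 of 15 gene pairs (Pearson r over 6 cows from 0.23 to 0.94, median 0.69; median Spearman rho 0.54), and for 13 of 15 without cow 4345. Of all pairs of tested genes 50.6% had a positive r (median 0.01), a share computed after the members' values were seen; the 15 pairs share 6 genes and 6 cows and are not independent. CXCL8 and TNF gave the highest value, r = 0.94 (exact permutation p = 0.00972, adjusted p = 0.167 over 30 relations; Spearman rho = 0.83, exact permutation p = 0.0583, adjusted p = 0.35). Without the 2 cows farthest from the median of CXCL8, r was 0.47. The remaining cows span a narrow range of CXCL8, so this value cannot show what the relation rests on. With 1 cow left out, r lay between 0.82 (without cow 4319) and 0.97 (without cow 4394). Scaled by library totals alone, r was 0.98 (exact permutation p = 0.00139, adjusted p = 0.0208), which passed the threshold. How many of the 30 relations passed under that scaling is not given here.

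IL1B and CXCL8 gave r = 0.84 over the cow means (exact permutation p = 0.025, adjusted p = 0.25; rho = 0.66, exact permutation p = 0.175, adjusted p = 0.438), and 0.60 without the 2 farthest cows. Among the sensors r was 0.48 for TLR2 with TLR4, 0.69 for TLR2 with CD14 and 0.71 for TLR4 with CD14. Without the 2 farthest cows these were 0.39, 0.47 and 0.09. TLR2 had r of 0.27 with IL1B (rho = 0.31), 0.29 with CXCL8 (rho = 0.71) and 0.23 with TNF (rho = 0.49). The other pairs of a cytokine and a sensor had higher r. CD14 had r of 0.81 with IL1B (rho = 0.89, exact permutation p = 0.0333, adjusted p = 0.35), 0.54 with CXCL8 (rho = 0.54) and 0.32 with TNF (rho = 0.37). TLR4 had r of 0.79 with IL1B (rho = 0.71), 0.76 with CXCL8 (rho = 0.37) and 0.71 with TNF (rho = 0.54).

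The change within a cow, lysine minus control, correlated positively for 12 of 15 pairs by Pearson's r (from -0.50 to 0.98, median 0.43) and for 14 of 15 by Spearman's rho (median 0.54). Of all pairs of tested genes 50.2% had a positive r. TLR2 and CD14 changed alike, r = 0.98 (exact permutation p = 0.0111, adjusted p = 0.167; rho = 0.89, exact permutation p = 0.0333, adjusted p = 0.35), but without the 2 cows farthest from the median of TLR2 r was 0.43. The cows left there span a narrower range of TLR2 change. With 1 cow left out, r lay between 0.94 (without cow 4319) and 0.997 (without cow 4383). CXCL8 and TLR4 followed at r = 0.87 (exact permutation p = 0.0514, adjusted p = 0.312; rho = 0.77, exact permutation p = 0.103, adjusted p = 0.371), and at 0.53 without the 2 farthest cows. The 3 pairs with a negative r all included IL1B. With TNF r was -0.50 (rho = -0.54), but 0.65 without the 2 cows farthest from the median of IL1B. With CD14 r was -0.24 and rho 0.03, and with TLR2 r was -0.15 and rho 0.14, so the sign of those 2 pairs depends on the measure. Those values rest in part on the libraries at 0, where the size of the change depends on the prior count: with a prior count of 0.5 in place of 2, 9 of 15 pairs were positive.

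Over all 12 libraries, as a description without a test because the libraries of a cow are not independent, the closest pair was CXCL8 and TLR4 (r = 0.80 of log2 normalised CPM). TLR4 ranked as the 41st gene most like CXCL8 among 11322, and CXCL8 as the 404th most like TLR4. Over the cow means CXCL8 and TLR4 had r = 0.76 but rho = 0.37, and r was -0.98 without the 2 cows farthest from the median of CXCL8. The remaining cows span a narrow range of CXCL8, so that value cannot show what the relation rests on. Over the 12 libraries IL1B and CXCL8 had r = 0.69, as had TLR2 and CD14, and IL1B and TLR2 had the lowest r of the 15 pairs, 0.11. Among 7347 other genes with a mean of at least 5 normalised CPM, the 2 with the highest mean r to the 6 were ENSBTAG00000020270 (mean r = 0.72, from 0.58 to 0.85) and ENSBTAG00000001294 (0.71, from 0.59 to 0.87). The lysine library of cow 4345 was the highest for both, at 148 and 50.2 normalised CPM. The lowest values were 26.5 (control library of cow 4408) for the first gene and 9.47 (lysine, cow 4394) for the second.

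The main comparison asked whether lysine changed these genes within cows. None of the 6 passed the threshold (edgeR quasi-likelihood fit blocked by cow, two-sided, adjusted p = 1 for each), and neither did any other gene: 0% of 11323 tested genes were called at an adjusted p under 0.05, and 2.53% had an unadjusted p under 0.05, none of the 6 among them. DESeq2 and limma voom also called 0 genes, with 543 and 584 at an unadjusted p under 0.05. IL1B was among the latter (limma voom, unadjusted p = 0.0152, adjusted p = 0.891). The median log2 fold change of the 6 was 0.26, that of all tested genes 0.04.

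Among the cytokines, IL1B had the largest estimate, going from 5.13 ± 6 normalised CPM without lysine to 10.3 ± 10.9 with it (mean ± SD, n = 6 each). Its log2 fold change was 1.61 ± 0.97 (SE), higher in 4 of 6 cows, with an unadjusted p of 0.124 by edgeR. The 95% interval ran from -0.51 to 3.72, so neither no change nor an increase of up to 13.2-fold lay outside it. The estimate was 0.91 without cow 4394, whose control library had no IL1B count, and 2.36 without cow 4383, where IL1B was 7.66-fold lower with lysine (edgeR, unadjusted p = 0.0165, adjusted p = 0.989). Without cow 4319 the mean with lysine was 6.41 normalised CPM.

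CXCL8 measured 31.4 ± 29.3 without and 39.7 ± 26.2 with lysine (n = 6 each). Its log2 fold change was 0.37 ± 0.41 (SE; 95% interval -0.53 to 1.27), and 3 of 6 cows had the higher level with lysine. Without cow 4319 the control mean was 19.7. Leaving out cow 4345 gave a log2 fold change of 0.08, cow 4408 0.01 and cow 4383 0.69. TNF measured 1.88 ± 3.01 and 1.93 ± 2, which gave a log2 fold change of 0.36 ± 1.04 (95% interval -1.91 to 2.63), again with 3 of 6 cows higher. Its direction hung on single animals, as it was -0.27 without cow 4345 and -0.27 without cow 4383. The TNF means did too, at 0.669 without lysine when cow 4319 was left out and 1.24 with lysine when cow 4345 was.

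The sensors were bounded more tightly. TLR2 measured 40.2 ± 13 without and 45.1 ± 24.2 with lysine (n = 6 each), for a log2 fold change of 0.09 ± 0.26 (95% interval -0.47 to 0.65). TLR4 measured 35.7 ± 11.7 and 40.6 ± 18.8, a log2 fold change of 0.16 ± 0.23 (95% interval -0.35 to 0.66). CD14 measured 119 ± 57.8 and 120 ± 64, a log2 fold change of -0.01 ± 0.19 (95% interval -0.43 to 0.42). Each sensor was higher with lysine in 4 of 6 cows. Increases beyond 1.57-fold for TLR2, 1.58-fold for TLR4 and 1.33-fold for CD14 lay outside the intervals, which carry no correction for testing many genes. When library totals alone set the scale, all tested genes shifted to a median of -0.26, and TLR2, TLR4 and CD14 stood at -0.23, -0.13 and -0.31.

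**Figure D3:**
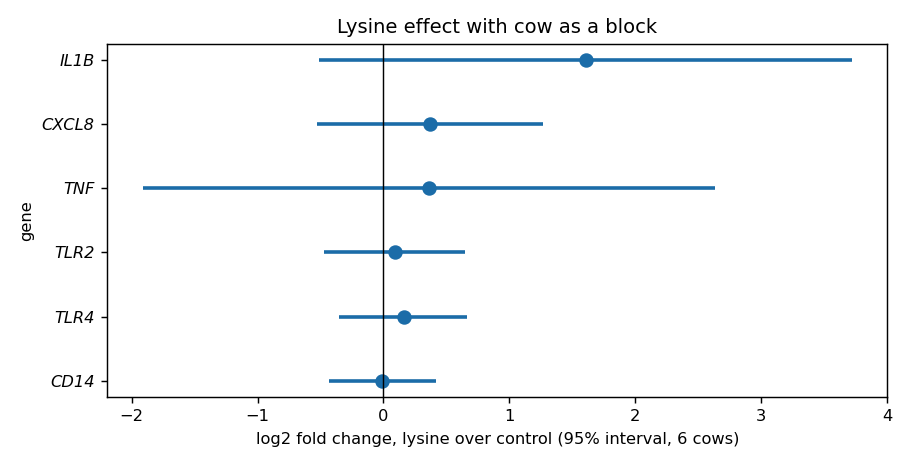
Log2 fold change of lysine over control for each gene (edgeR with cow as a block, 6 cows); points are estimates and bars their 95% intervals. All 6 intervals include 0, and those of IL1B and TNF are far wider than those of the 3 sensors.

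Single cows changed by more than these averages. In cow 4345 all 6 genes were higher with lysine, against 50.2% of tested genes. IL1B was 5.56-fold, CXCL8 3.43-fold and TNF 9.73-fold higher there, and the sensors 1.25-fold to 1.79-fold. In cow 4408 all 6 were again higher, against 50.8% of tested genes, with IL1B 10.9-fold (10 counts in the control library), CXCL8 4.99-fold and TNF 1.41-fold higher. Both cows moved the cytokines IL1B and CXCL8 more than any sensor.

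The other 4 cows were mixed. In cow 4381, 4 of 6 genes were higher with lysine (51.1% of tested genes), none by more than the 1.49-fold of TLR2, and TNF (7 counts in each library) was 2.94-fold lower. In cow 4383, 3 of 6 were higher (46.6% of tested genes), TNF among them from its control at 0, while IL1B was 7.66-fold, CXCL8 2.29-fold and TLR4 1.41-fold lower. In cow 4319, 2 of 6 were higher (49.9% of tested genes): IL1B 2.19-fold and TLR4 1.05-fold, whereas TNF was 2.52-fold and TLR2 2.36-fold lower. In cow 4394, 1 of 6 was higher (53.2% of tested genes), IL1B from its control at 0, and the other 5 were 1.14-fold to 2.95-fold lower. Scaled by library totals alone, the counts were 0 of 6 in cow 4381 and 1 of 6 in cow 4383, while those of cows 4345, 4394 and 4408 were the same.

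**Figure D4:**
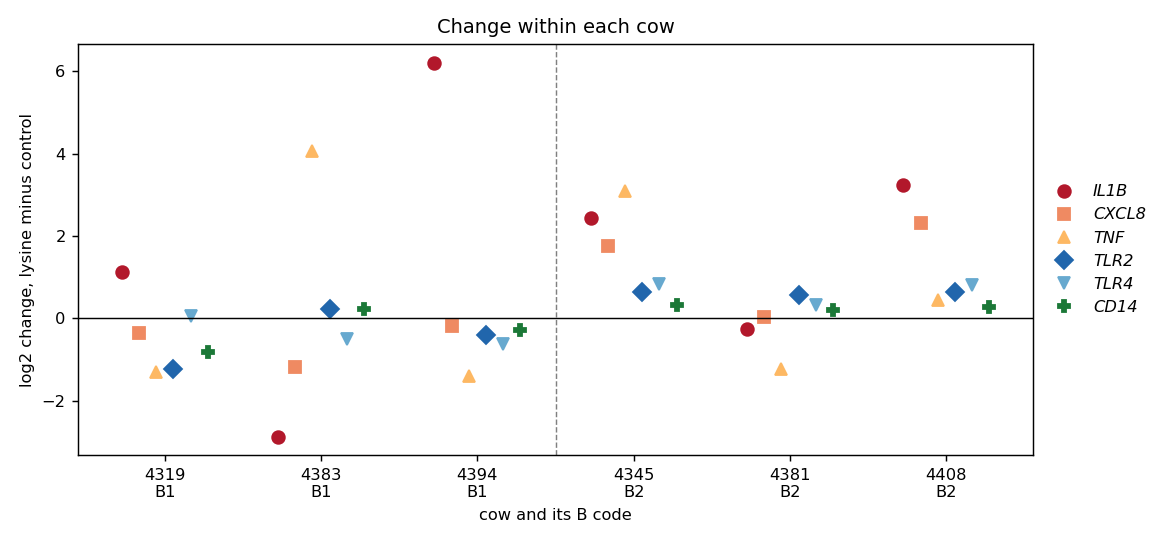
Log2 change within each cow (vertical axis, lysine minus control, prior count of 2) for the 6 genes, with cows ordered by their B code on the horizontal axis and each symbol a gene. All symbols lie above 0 in cows 4345 and 4408; the highest points of cows 4383 (TNF) and 4394 (IL1B) come from control libraries with 0 counts, so their height depends on the prior count.

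The changes with lysine were also compared between the B codes, a comparison added after the values were seen; the difference passed the threshold for none of the 6 genes. CXCL8 was lower with lysine in 3 of 3 cows coded B1 (mean log2 change -0.58 ± 0.53, SD) and higher in 3 of 3 coded B2 (1.37 ± 1.19). The split in that direction was found in 2.93% of all tested genes, and in either direction in 5.39%. It rests on small steps: in cow 4381, coded B2, the levels were 20.8 without and 21.2 with lysine, whose counting intervals overlap. Scaled by library totals alone it was lost on both sides, as CXCL8 was then 0.667 times its control level in cow 4381 and 1.04 times in cow 4319, coded B1. The lysine effect on CXCL8 was larger in B2 than in B1 cows by 1.97 ± 0.57 on the log2 scale (SE). Its unadjusted p was 0.00526 and its adjusted p 0.684 by edgeR's interaction test, which called 0% of tested genes, so the difference did not pass the threshold. With DESeq2 the adjusted p was 0.0506. TLR4 and TLR2 had B2 minus B1 differences of 1.01 ± 0.35 and 1.09 ± 0.40 (SE; adjusted p = 0.684 each by edgeR), and both were higher with lysine in 3 of 3 B2 cows and 1 of 3 B1 cows. With library totals alone both were lower in cow 4381, which leaves 2 of 3 B2 cows. TLR2 was then also lower in cow 4383, at 0.422 times its control level, the only B1 cow where it had been higher. CD14 had a difference of 0.56 ± 0.36 (SE; adjusted p = 0.752 by edgeR). IL1B differed by 0.84 ± 1.99 (adjusted p = 0.936 by edgeR; higher with lysine in 2 of 3 cows of either code) and TNF by 0.93 ± 2.15 (adjusted p = 0.935 by edgeR; higher in 1 of 3 B1 and 2 of 3 B2 cows). An exact permutation test of 3 cows against 3 cannot give a p below 0.1, the value it gave for CXCL8, TLR2 and TLR4. Each B code held 2 cows whose P code was lower with lysine and 1 cow in which it was higher.

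Finally, the cows were compared with each other. CD14 was the only one of the 6 that passed (edgeR quasi-likelihood F test of the cow terms, adjusted p = 0.0497), where 1.42% of tested genes were called. The mean of its 2 libraries was 45.9 in cow 4394, 80.4 in cow 4408, 110 in cow 4381, 122 in cow 4383, 149 in cow 4319 and 210 in cow 4345. The 2 libraries of cow 4394 lay below all others, and those of cow 4408 (72.5 and 88.3) below the remaining 8. Cows 4381, 4383 and 4319 overlapped, and the control library of cow 4319 (190) exceeded that of cow 4345 (186). The call was marginal: the adjusted p of CD14 was 0.207 if cow 4394 was left out, 0.399 for cow 4345, 0.0812 for cow 4381 and 0.0933 when scaled by library totals alone, but 2.85e-06 with DESeq2. The adjusted p was 0.277 for CXCL8, 0.339 for TLR4, 0.396 for TLR2, 0.472 for IL1B and 0.506 for TNF by edgeR. CXCL8 passed with DESeq2 (adjusted p = 0.0291). DESeq2 called 1518 genes in this comparison, against 161 by edgeR, so its calls are set against a far larger share of genes.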

How the data were processed

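RNA of the fat layer of milk was sequenced in 12 libraries. The deposited values are raw counts per gene, whole numbers with 1 column per library and no pooling, per the file headers and values. Which aligner, counting tool, strand setting, genome build and annotation were used is not given in the sources used here, so no gene positions are given, and no sequences were used. Of the 24616 IDs, 0 matched a symbol in a table of 37063 RefSeq genes; the planned pathway and cell type marker lists were therefore not read. The 6 genes and all lists were chosen with earlier results of these data known.

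Groups and cows come from the sample titles. The 2 libraries of a cow share the animal, so cow was a block. Deviations from the group means correlated at -0.02 to 0.66 within cows (median 0.19) and at a median of -0.03 between cows. Only 3 of 6 control libraries correlated best with the lysine library of their own cow. Whether p-values reach beyond these cows depends on how the cows were chosen, which the labels do not say.

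Genes were kept by filterByExpr (minimum count 10), leaving 11323, with TMM factors of 0.44 to 1.41. Robust quasi-likelihood models of edgeR 4.0.16 (R 4.3.3) with cow and treatment were tested two-sided with Benjamini-Hochberg adjustment over all tested genes, at a threshold of 0.05. The script was tested on simulated data. Log2 values used a prior count of 2, and correlations an exact permutation over 720 pairings of the cows. Alternatives used DESeq2 1.42.0, limma 3.58.1, other scalings, no filter, a depth covariate, no block, and each cow left out. Named genes are the 6 members and the 2 genes with the highest mean r to them.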

Additional observations from a re-analysis of the deposited data

Results flagged for a closer look

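Dixon's test (95% level) set a library apart in 2 of 18 groups of 6 values. By chance about 1 in 20 would be, if the values were normally distributed and the groups independent. Both were the control library of cow 4319, on CPM that were not log transformed, so that rate is only a rough guide. CXCL8 stood there at 90.0 normalised CPM (next control 27.0), and TNF at 7.95 (next control 1.54). The lysine library of the same cow held 70.2 and 3.16. Without cow 4319 the log2 fold change of CXCL8 was 0.54 and that of TNF 0.88, neither past the threshold.

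The lysine effect on CXCL8 had opposite signs in all 3 cows coded B1 and all 3 coded B2, a difference of 1.97 on the log2 scale (adjusted p = 0.684 by edgeR's interaction test). The opposite signs were lost when library totals alone set the scale, where CXCL8 was 0.667 times its control level in cow 4381 (B2) and 1.04 times in cow 4319 (B1); in the main scaling cow 4381 held 20.8 and 21.2 normalised CPM, with overlapping counting intervals. The difference lay between 1.504 and 2.61 over 11 alternatives, with an adjusted p from 0.0506 to 1.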

How the results depend on the processing

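For lysine, 13 of 14 alternatives called 0 genes. The fit with no replicate block was among them (0 genes; 202 had an unadjusted p under 0.05, and 286 with the block) and changed no call. Leaving the low-count filter out gave 1 called gene. None of the 6 members passed the threshold for lysine in any alternative. IL1B and CXCL8 kept their direction in all 14 (0.91 to 2.36 and 0.01 to 0.69 on the log2 scale). CD14 turned positive with DESeq2 (0.004), with DESeq2's size factors (0.0036) and with no replicate block (0.0159), and ranged from -0.061 to 0.15 over the fits that omit a cow. TLR2 turned negative with library totals (-0.23) and when depth was a covariate (-0.12), and ranged from -0.0125 to 0.34 when a cow was omitted; TLR4 turned negative with library totals (-0.13). TNF ranged from -0.27 to 0.88 when a cow was omitted. The cow comparison called 161 genes; it called 1518 by DESeq2, 829 unfiltered, 396 scaled by library totals, 18 with the depth covariate and 9 to 429 when a cow was omitted. CD14 also missed the threshold there with DESeq2's size factors (adjusted p = 0.0533) and the depth covariate (0.0723). The B code comparison called 0 genes, but 39 by DESeq2 and 30 unfiltered, and 0 to 1 when a cow was omitted. The cause of these shifts was not tested. Mean levels per group moved by less than 1 SD in every alternative, but 4 by over 1.5 times: without cow 4319 TNF and CXCL8 in controls (1.88 to 0.669 and 31.4 to 19.7) and IL1B with lysine (10.3 to 6.41), and without cow 4345 TNF with lysine (1.93 to 1.24). Depth limits TNF most, with under 30 counts in 10 of 12 libraries.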
